A study of Mus musculus with 32 samples.

Results

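Transcription factor genes of lymphoid development, 10 in number, were followed through 8 fractions of mouse bone marrow at 2 ages. The members, chosen by symbol among the 24421 genes of the raw count matrix, were Ebf1, Pax5, Tcf3, Tcf4, Foxo1, Ikzf1, Ikzf2, Ikzf3, Bcl11a and Satb1. All 10 were found and all 10 passed the filter on low counts. RNA of sorted cells from young and aged mice was sequenced in duplicate, which gave 32 libraries in 16 groups. The study asked how stem and progenitor cells change with age, and marrow was pooled by age before sorting, so the spread between duplicates may be technical and the p-values measure only that spread.

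All mice were female C57BL/6, aged 10 weeks (young) or 20 months (aged), and no group carried a transgene or received an agent. Hematopoietic stem cells (HSCs) and multipotent progenitors (MPP1 to MPP4) came from the lineage-negative, Sca-1+ c-kit+ gate. HSCs lacked CD34, CD48 and Flt3 and carried CD150, and MPP1 differed from them by the presence of CD34. MPP2 carried CD150 and CD48, MPP3 carried CD48 without CD150 or Flt3, and MPP4, which is rich in lymphoid-primed cells, carried CD48 and Flt3. Granulocyte-macrophage progenitors (GMPs) were Sca-1- c-kit+ with FcgR and CD34, and megakaryocyte-erythroid progenitors (MEPs) were Sca-1- c-kit+ with neither. Common lymphoid progenitors (CLPs) were the only fraction sorted as IL-7+, with low Sca-1 and low c-kit. In every other fraction an antibody against the IL-7 receptor was part of the lineage mixture. Only that antibody was left out for CLPs, so the mixture held an antibody against B220 in all fractions, CLPs included.

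B and T lymphocytes arise from stem cells through a multipotent, Flt3-bearing stage and then the common lymphoid progenitor, and each step is driven by a small set of DNA-binding proteins. Ebf1, together with the E protein E2A (gene Tcf3) and Foxo1, switches on the B lineage programme, and Pax5 then commits the cell to it. Ikaros (Ikzf1), Helios (Ikzf2) and Aiolos (Ikzf3) are zinc finger proteins that bind one another and recruit the NuRD chromatin-remodelling complex. E2-2 (Tcf4) is the E protein on which plasmacytoid dendritic cells depend, Bcl11a is a zinc finger repressor needed for B cells and for the silencing of fetal globin, and Satb1 is a chromatin organizer known for the first lymphoid steps of stem cells and for T cells. The genes of the TCF/LEF factors Tcf7l1 and Tcf7l2, older literature names of which are also Tcf3 and Tcf4, had rows of their own in the matrix.

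Library totals ran from 11237384 to 17723245 counts with a median of 13489610, so that 3 counts, used here as the floor of detection in a library, corresponded to 0.186 to 0.281 counts per 1000000 (CPM). CPM were scaled to library sizes adjusted by the trimmed mean of M-values (TMM). Labels were checked against marker genes. Summed levels of 9 erythroid genes lay between 12018 and 12856 CPM in MEPs, those of 9 neutrophil genes between 90352 and 91861 CPM in GMPs, and those of 17 B lineage target genes between 4619 and 6303 CPM in CLPs. A gene was called different when the Benjamini-Hochberg adjusted p of edgeR's quasi-likelihood F-test was under 0.01, the level used in the study.

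On the mm10 (GRCm38) assembly, 4 of the 10 genes lie on chromosome 11: Ebf1 at chr11:44617317-45008091 on the plus strand, Ikzf1 at chr11:11685003-11772926 (plus), Bcl11a at chr11:24078056-24174123 (plus) and Ikzf3 at chr11:98464902-98546031 (minus). Pax5 lies at chr4:44524757-44710487 (minus), Tcf3 at chr10:80409514-80433647 (minus), Foxo1 at chr3:52268336-52353221 (plus), Ikzf2 at chr1:69531214-69687245 (minus) and Satb1 at chr17:51736187-51833290 (minus). Counts were summed over each whole gene, so the isoforms by which Tcf3 gives E12 and E47, and Ikaros its short forms, were not resolved.

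Promoters were read because the members include factors known to act on one another's genes. RefSeq windows of GRCm38.p6 were matched for 7 of the 10 members, with 13 annotated starts. The 250 bases before each start were searched on both strands for 5 motifs: the Ebf1 palindrome TCCCNNGGGA, the E-boxes CAGCTG and CAGGTG, the Foxo motif GTAAACA and the Ikaros motif TGGGAA. The 4 windows shown are those of Ebf1 and Pax5, whose transcripts were nearly limited to CLPs, of Foxo1, and of 1 Satb1 start that holds E-boxes. Capitals mark the motifs, sequences run 5′ to 3′ on the gene's strand and end at the base before the start.
Ebf1, start 2, chr11:44619978-44620227, plus strand: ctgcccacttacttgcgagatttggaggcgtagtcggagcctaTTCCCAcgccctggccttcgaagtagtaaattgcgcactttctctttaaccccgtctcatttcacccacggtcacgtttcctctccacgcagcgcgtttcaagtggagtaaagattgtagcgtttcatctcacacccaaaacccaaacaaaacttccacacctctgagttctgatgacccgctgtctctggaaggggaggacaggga
Pax5, chr4:44710695-44710944, minus strand: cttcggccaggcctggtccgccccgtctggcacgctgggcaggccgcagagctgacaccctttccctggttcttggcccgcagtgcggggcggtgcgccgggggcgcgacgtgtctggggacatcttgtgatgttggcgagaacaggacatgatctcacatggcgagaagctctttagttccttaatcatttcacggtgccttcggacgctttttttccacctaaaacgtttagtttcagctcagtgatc
Foxo1, chr3:52268087-52268336, plus strand: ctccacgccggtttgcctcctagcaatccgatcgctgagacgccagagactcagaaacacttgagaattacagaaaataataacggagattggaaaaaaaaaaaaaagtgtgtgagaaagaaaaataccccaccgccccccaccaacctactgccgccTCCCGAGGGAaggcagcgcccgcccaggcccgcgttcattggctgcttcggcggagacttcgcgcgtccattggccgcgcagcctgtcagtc
Satb1, start 3, chr17:51826589-51826838, minus strand: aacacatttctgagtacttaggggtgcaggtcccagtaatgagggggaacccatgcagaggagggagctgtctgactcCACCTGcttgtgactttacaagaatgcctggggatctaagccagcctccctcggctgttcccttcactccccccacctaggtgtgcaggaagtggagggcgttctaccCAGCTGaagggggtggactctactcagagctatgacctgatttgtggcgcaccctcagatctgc

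The Foxo1 window held the Ebf1 palindrome as TCCCGAGGGA, beginning 92 bases before the start, a motif found in 0.779% of the 32851 windows of the same length. The window of Ebf1 start 2 held the Ikaros motif as TTCCCA 207 bases before that start, and 21.6% of all windows hold that motif. The window of Ebf1 start 1, not shown, held none of the 5 motifs. The Satb1 window held CACCTG and CAGCTG 172 and 64 bases before its start, and the shares of all windows with these E-boxes in either orientation were 17.2% and 13%. All 250 bases of this Satb1 window lie in annotated exons. The Pax5 window held none of the 5 motifs. The Foxo motif, present in 3.17% of all windows, was in no member window. These matches describe letters only, and no binding was measured.

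Levels of the 10 genes were compared between all pairs of fractions. Over the 28 pairs of young fractions, 169 of 280 member comparisons (60.4%) were called against 42.4% over all genes, and among aged fractions 178 of 280 (63.6%) were called against 40.8%. Among young fractions, the 7 members Ebf1, Pax5, Tcf3, Tcf4, Foxo1, Ikzf1 and Ikzf3 had their highest level in CLPs. Satb1 was highest in young MPP4, Bcl11a had almost the same mean in young MEPs and CLPs, and Ikzf2 was highest in young MPP3 and lowest in young CLPs, against the lymphoid name of the set. In aged marrow Tcf3 was instead highest in MEPs, Bcl11a highest in CLPs and Ikzf2 lowest in MEPs. Per kilobase of the longest transcript, the level in young CLPs was 293 CPM for Tcf3, between 34.5 and 53.8 CPM for Tcf4, Ikzf1, Satb1 and Bcl11a, 20.3 CPM for Ebf1 and 19.9 CPM for Foxo1. On the same scale Ikzf3 reached 3.59 CPM, Pax5 0.993 CPM and Ikzf2 0.423 CPM.

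**Figure D1:**
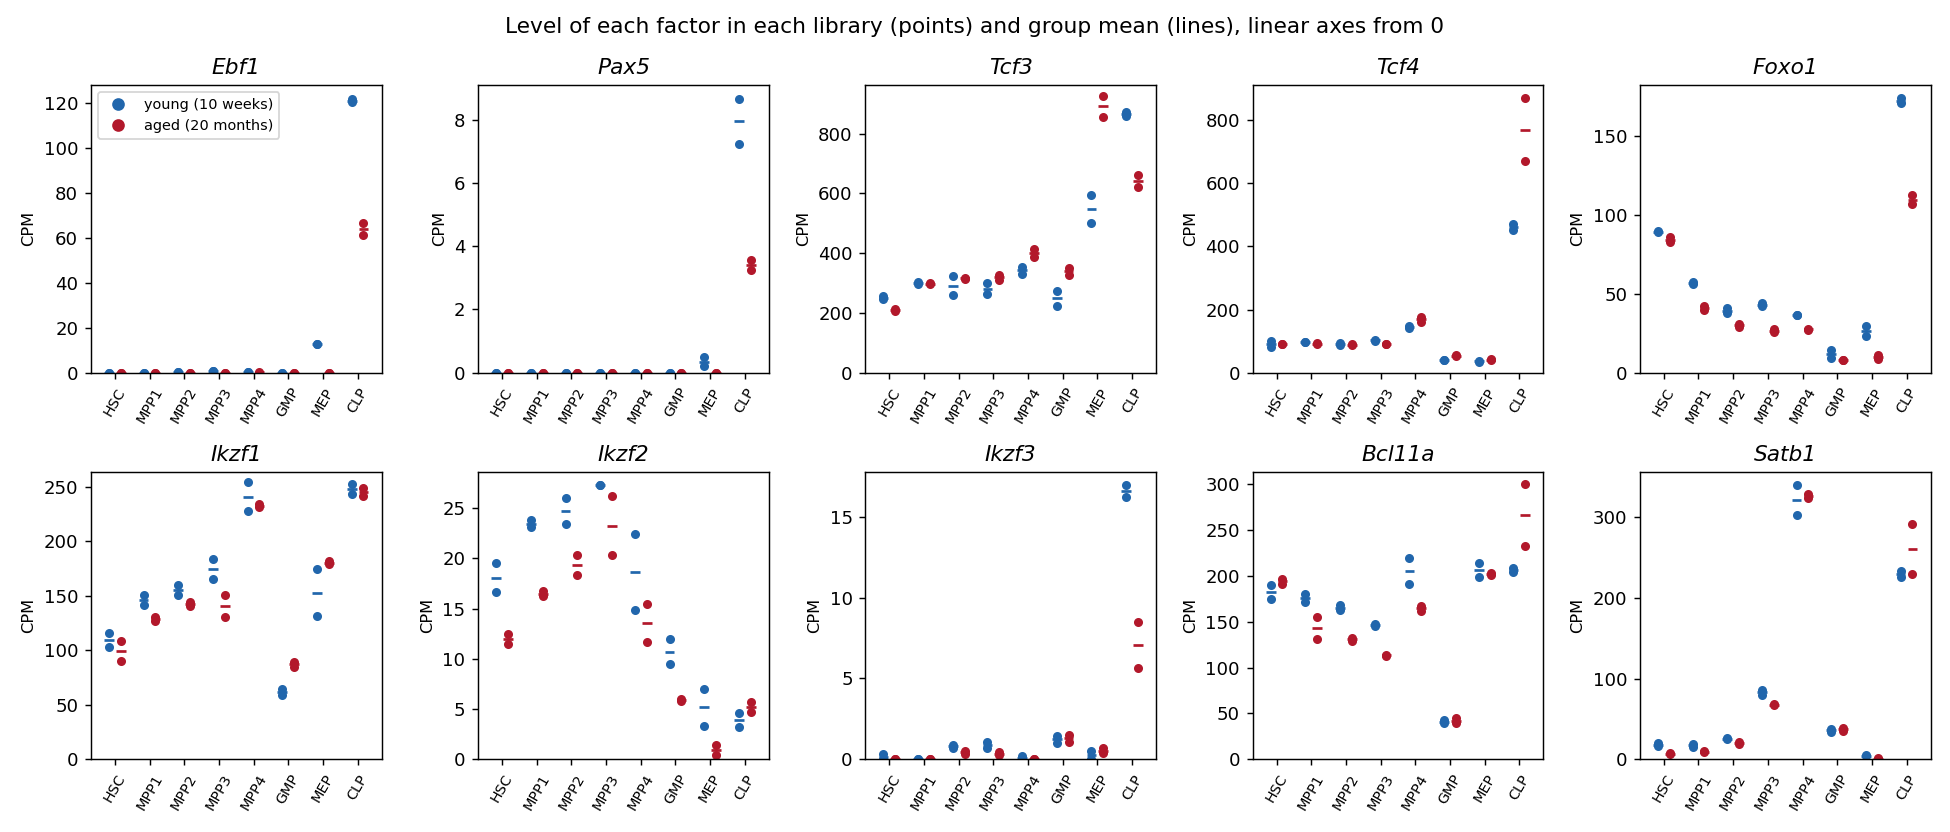
Level of each of the 10 transcription factor genes, in counts per 1000000 (CPM), in each library (points) of the 8 fractions, young and aged side by side. Ebf1, Pax5 and Ikzf3 stand out in CLPs alone apart from Ebf1 at about 12.8 CPM in young MEPs, Satb1 peaks in MPP4 and Tcf3 is high in CLPs and MEPs.

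Ebf1, Pax5 and Ikzf3 formed the CLP-restricted part of the set. Ebf1 stood at 122 and 120.4 CPM (1486 counts in each library) in the young CLP duplicates and was at 0 in both libraries of young HSCs, MPP1 and GMPs. Outside CLPs of either age, the only group with more than 11 Ebf1 counts in a library was the young MEPs, at 12.7 and 12.9 CPM (199 and 180 counts). Ebf1 was at 0 in 19 of the 32 libraries and at 3 counts or fewer in 21. CLPs exceeded MEPs among young fractions (adjusted p = 3.4e-08) and MEPs exceeded MPP3 (adjusted p = 5.6e-08), whereas neighbours further down the order were not called different.

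Pax5, the commitment factor downstream of Ebf1, stood at 7.23 and 8.67 CPM (88 and 107 counts) in young CLPs and at 0 in 26 of the 32 libraries. Outside CLPs its counts were 3 and 7, both in young MEPs. Ikzf3, which rises late in B cell development, stood at 16.2 and 16.9 CPM in young CLPs and at 1.42 and 1.04 CPM in young GMPs, its second fraction. These 3 genes therefore had a single high fraction, and Ebf1 alone had a second one above 2 CPM.

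Tcf3 was transcribed in all fractions. Young CLPs held 873 and 857 CPM, young MEPs 593 and 499 CPM and young MPP4 353 and 331 CPM, and the fractions below these, down to GMPs at 224 and 273 CPM, were not called different from their neighbours. Both upper steps were called (adjusted p = 3.4e-06 for CLPs over MEPs and 2.4e-06 for MEPs over MPP4). In aged marrow the order at the top was the opposite, with MEPs at 856 and 927 CPM above CLPs at 622 and 660.4 CPM (adjusted p = 1.8e-04).

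Tcf4, at chr18:69343356-69689079 on the plus strand, was more CLP-centred than Tcf3, with 471 and 452 CPM in young CLPs, 143 and 148 CPM in young MPP4 and between 81.4 and 104 CPM in the libraries of young HSCs and MPP1 to MPP3. Young GMPs at 39.7 and 38.6 CPM and young MEPs at 38.0 and 35.0 CPM were lowest. The steps from CLPs to MPP4, from MPP4 to MPP3 and from HSCs to GMPs were called, and the others were not.

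Foxo1, the forkhead factor downstream of insulin and phosphatidylinositol kinase signals, had the second highest level in HSCs. The young CLP duplicates stood at 174 and 171 CPM and the young HSC duplicates at 89.5 and 89.6 CPM (adjusted p = 3.9e-07). Levels then fell in order through MPP1 (57.3 and 56.4 CPM), MPP3, MPP2 and MPP4 (36.7 and 36.7 CPM) to MEPs and GMPs, the last at 14.2 and 9.26 CPM. The called steps were those from CLPs to HSCs, HSCs to MPP1, MPP4 to MEPs and MEPs to GMPs.

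The Ikaros family split 3 ways. Ikzf1 was broad, from 243 and 253 CPM in young CLPs and 254 and 228 CPM in young MPP4 down to 64.1 and 58.7 CPM in young GMPs, and CLPs and MPP4 were not called different (adjusted p = 0.771). Ikzf2 ran the other way, with 27.3 CPM in both young MPP3 libraries, 19.5 and 16.6 CPM in young HSCs and 4.60 and 3.24 CPM in young CLPs. Ikzf3 was the CLP-restricted gene described above.

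Bcl11a was the flattest member outside GMPs. Group means in the 7 other young fractions lay between 146 and 207 CPM and no neighbours among them were called different, while GMPs stood at 39.8 and 42.6 CPM (adjusted p = 1.8e-12 against MPP3). Of all 28 pairs of young fractions 12 were called for Bcl11a. GMPs take part in only 7 pairs, so some pairs further apart among the 7 other fractions were called too. Satb1 spanned the widest range among the members detected in all libraries. In young fractions it ran from 339 and 303 CPM in MPP4 through 226 and 233 CPM in CLPs, 79.6 and 85.9 CPM in MPP3 and 34.1 and 37.7 CPM in GMPs to 4.03 and 4.81 CPM in MEPs, a ratio of 72.6 between the extreme means. Of its 7 neighbouring steps, 5 were called.

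The step from HSCs to MPP4, the entry into lymphoid priming, called 6 of the 10 members in young marrow (5 higher in MPP4, 1 lower), beside 34.6% of all genes tested. Satb1 rose from 16.4 and 20.3 CPM to 339 and 303 CPM, 17.5-fold (log2 change 4.13 ± 0.15, SE, adjusted p = 2.76e-15). Ikzf1 rose by 1.14 ± 0.11 (adjusted p = 1.79e-08), Tcf4 by 0.68 ± 0.10 and Tcf3 by 0.45 ± 0.10 on the log2 scale. With offsets for GC content and length Tcf4 stood at 0.39 and was not called (adjusted p = 0.0196), and the Tcf3 call was lost without replicate 1 of the HSCs (adjusted p = 0.0173) or of MPP4 (adjusted p = 0.0126). Ebf1 passed the test on 6 and 5 counts against 0, at least 1.72-fold higher (adjusted p = 0.00436), a call lost when any 1 of the 4 libraries was left out (adjusted p from 0.0143 to 0.0342), and Foxo1 fell by 1.29 ± 0.12 (adjusted p = 1.83e-08). Of 14 tested genes of an early lymphoid programme, 13 rose and only Ltb fell. That list includes Satb1 itself and Flt3, whose protein separated these fractions in the sort. Of 13 NuRD subunits, the partners of the Ikaros family, 7 rose and none fell.

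The same step in aged marrow called 5 members (4 higher, 1 lower) beside 45.5% of all genes. Satb1 rose from 7.27 and 7.03 CPM to 324 and 329 CPM, 45.6-fold, its level being lower in aged than in young HSCs and not called different in MPP4. Ikzf1 rose by 1.23 ± 0.11, Tcf3 by 0.94 ± 0.10 and Tcf4 by 0.88 ± 0.10, and Foxo1 fell by 1.62 ± 0.13, all with adjusted p at or below 1.44e-07. The early lymphoid programme again rose in 12 of 14 genes, and 9 of 13 NuRD genes rose.

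From MPP4 to CLPs, the step into the lymphoid fraction, 8 of the 10 members were called in young marrow (6 higher in CLPs, 2 lower) beside 41.8% of all genes. Ebf1 rose from 6 and 5 counts to 1486 in each library, 315-fold (log2 change 8.30 ± 0.33, adjusted p = 3.75e-10). Ikzf3 rose at least 80-fold and Pax5 at least 38.4-fold over the floor, although DESeq2 did not call Pax5 (adjusted p = 0.124). Foxo1 rose by 2.23 ± 0.12, reversing its fall from HSCs to MPP4, Tcf4 by 1.67 ± 0.10 and Tcf3 by 1.34 ± 0.10. Ikzf2 fell by 2.25 ± 0.29 (adjusted p = 1.52e-06) and Satb1 by 0.48 ± 0.13 (adjusted p = 0.00274). The Satb1 call was lost without 3 of the 4 libraries, 1 at a time (adjusted p from 0.0121 to 0.0380), and with offsets for GC content and length (adjusted p = 0.012). All 17 B lineage target genes of Ebf1, Pax5 and the E proteins rose with them, 6 of 7 Foxo1 target genes rose and S1pr1 fell. Both lists hold Il7r, whose protein the sort selected for in CLPs and against in MPP4.

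In aged marrow the step into CLPs also called 8 members (7 higher, 1 lower) beside 40.5% of all genes. Bcl11a, level in young cells (log2 change 0.01), was higher in aged CLPs than in aged MPP4 by 0.69 ± 0.10 (adjusted p = 4.27e-06), and the fall of Satb1 was not called (-0.33, adjusted p = 0.035). Ebf1 rose at least 291-fold, Ikzf3 at least 32.2-fold and Pax5 at least 15.5-fold, the last again not called by DESeq2 (adjusted p = 0.189). Tcf4 rose by 2.19 ± 0.10, Foxo1 by 2.0 ± 0.13 and Tcf3 by 0.68 ± 0.10, and 16 of 17 B lineage target genes rose.

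With age, 18 calls were made over 10 members and 8 fractions, 5 of them higher and 13 lower in aged cells. Over all genes, the share called ran from 5.40% in HSCs to 20.8% in MEPs. Genes called higher in aged cells outnumbered those called lower in every fraction (529 against 235 in HSCs, 808 against 670 in CLPs) except MEPs (1285 against 1658). The number and direction of member calls varied by fraction, as set out next. Foxo1 had a negative log2 difference in all 8 fractions under every alternative run, with calls in MPP3, GMPs, MEPs and CLPs. Its values ran from -0.13 to -0.07 in HSCs, where it was called in no setting.

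**Figure D2:**
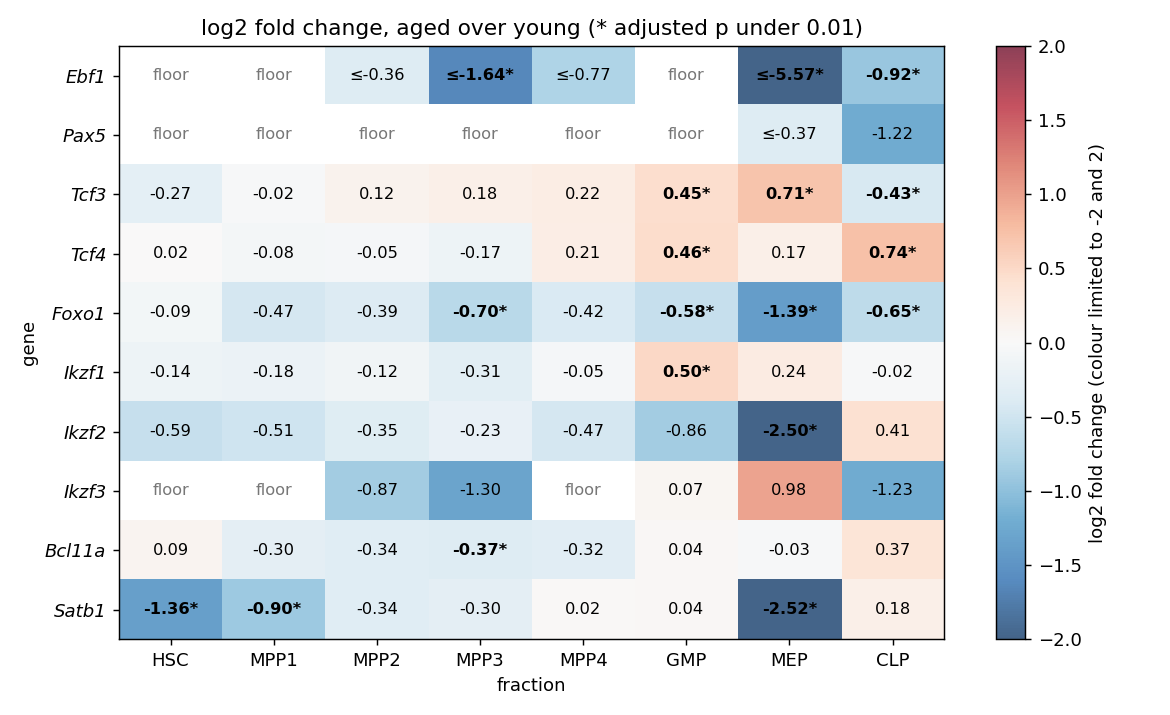
Log2 difference in level of aged over young cells for each of the 10 genes (rows) in each of the 8 fractions (columns), from the fit over all libraries. Asterisks mark adjusted p under 0.01, cells marked floor had both groups at or under 3 counts or gave no informative bound, values after a ≤ sign are bounds against that floor, and the row of Foxo1 is negative throughout.

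In HSCs, 1 of 10 members was called, beside 5.40% of all genes. Satb1 fell from 16.4 and 20.3 CPM in young to 7.27 and 7.03 CPM in aged HSCs, 2.57-fold (log2 change -1.36 ± 0.17, adjusted p = 1.08e-05). Both aged libraries lay below both young ones. Of 14 early lymphoid genes 3 fell, Satb1 among them, and 1 rose. The lymphotoxin gene Ltb fell from 365 to 174 CPM and the cytokine receptor gene Flt3 from 27.9 to 15.8 CPM. The 17 B lineage target genes had no call in HSCs, and their summed level was 463 and 471 CPM in young and 478 and 477 CPM in aged libraries. The 9 neutrophil genes summed to 274 and 298 CPM in young and 636 and 819 CPM in aged HSCs, whose part in the result was not tested.

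In MPP1 the single call (6.80% of all genes) was again Satb1, from 19.5 and 15.6 CPM to 8.72 and 10.0 CPM (-0.90 ± 0.16, adjusted p = 5.89e-04). The groups did not overlap, but the call was lost without replicate 1 of either group (adjusted p = 0.0247 and 0.0217). Foxo1 followed at -0.47 ± 0.12 (adjusted p = 0.0134), which was not called.

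In MPP2 no member was called, beside 7.81% of all genes. Of the members, 4 had an unadjusted p under 0.05, and DESeq2 called 2, Bcl11a and Foxo1. The 7.81% belongs to the main fit and is no background for these counts. Bcl11a stood at 168 and 163 CPM in young and 129 and 132 CPM in aged MPP2 (-0.34 ± 0.10, adjusted p = 0.0227), and Foxo1 at 37.6 and 40.8 against 29.1 and 30.8 CPM (-0.39 ± 0.13, adjusted p = 0.0397). Neither pair of groups overlapped, which with 2 libraries each is no test of a difference.

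In MPP3, 3 members were lower in aged cells and none higher, beside 13.9% of all genes called. Foxo1 fell from 42.3 and 44.0 CPM to 27.4 and 25.7 CPM (-0.70 ± 0.13, adjusted p = 3.73e-04). Bcl11a fell from 148 and 145 CPM to 113 and 114 CPM (-0.37 ± 0.10, adjusted p = 0.00966), a call lost when any 1 of the 4 libraries was left out (adjusted p from 0.0681 to 0.095), with offsets for GC content and length (-0.29, adjusted p = 0.0247) and with MPP3 fitted on its own (adjusted p = 0.0109). Ebf1 had 11 and 7 counts in young MPP3 and 0 in both aged libraries, at least 3.11-fold lower (adjusted p = 0.00185). That call was lost without young replicate 1 or either aged library (adjusted p from 0.0148 to 0.0152). Of 20 other lymphoid regulators, 7 fell and none rose, the largest falls being those of Tcf7, from 9.96 to 2.45 CPM, and Irf8, from 72.7 to 31.96 CPM. Of the B lineage target genes 4 fell, among them the surrogate light chain gene Igll1 and the receptor gene Il7r, while Dntt, which codes for terminal transferase, rose from 55.2 to 72.6 CPM. In the same libraries 9 neutrophil genes summed to 4583 and 4847 CPM in young and 2272 and 2286 CPM in aged MPP3, and 10 macrophage genes to 197 and 210.1 against 57.5 and 62.5 CPM. Erythroid genes went from 2161 and 2172 to 895 and 921 CPM, and the part of these genes was not tested.

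In MPP4 no member was called, beside 16.6% of all genes. Among the members, 5 had an unadjusted p under 0.05, and DESeq2 called 2, Bcl11a and Foxo1. The 16.6% belongs to the main fit and is no background for these counts. Satb1, the gene that marked aged HSCs, stood at 339 and 303 CPM in young and 324 and 329 CPM in aged MPP4, so that the groups overlapped (0.02 ± 0.13). Bcl11a (-0.32 ± 0.10, adjusted p = 0.0196) and Foxo1 (-0.42 ± 0.13, adjusted p = 0.0176) did not overlap between ages. Non-overlap of 2 libraries against 2 is no test of a difference. With the replicate number as a block, Bcl11a was called (-0.31, adjusted p = 0.00928). Early lymphoid genes moved both ways here: Dntt rose from 713 to 1067 CPM, and Ccr9, Ltb and Lax1 fell.

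In GMPs, 4 members were called (3 higher, 1 lower) beside 18.9% of all genes. Ikzf1 rose from 64.1 and 58.7 CPM to 89.5 and 84.5 CPM (0.50 ± 0.11, adjusted p = 0.00168). Tcf4 rose from 39.7 and 38.6 CPM to 54.4 and 53.0 CPM (0.46 ± 0.11, adjusted p = 0.00238). Tcf3 rose from 224 and 273 CPM to 349.9 and 328 CPM (0.45 ± 0.10, adjusted p = 0.0016). None of these groups overlapped, and GMPs were the only fraction in which Ikzf1 was called. Foxo1 fell from 14.2 and 9.26 CPM to 7.96 and 7.75 CPM (-0.58 ± 0.16, adjusted p = 0.00801). The size of that value rested on young replicate 1, without which it was -0.25. The call was also lost without aged replicate 1 (-0.60) or aged replicate 2 (-0.56). The Tcf4 call was lost when any 1 library was left out, the Tcf3 and Ikzf1 calls without 2 of the 4, and with offsets for GC content and length Tcf3 stood at 0.19 (adjusted p = 0.284) and Tcf4 at 0.40 (adjusted p = 0.0465). Of 20 other lymphoid regulators 7 rose, led by Zbtb16 (5.40 to 16.9 CPM) and Pou2f2 (10.1 to 27.5 CPM), and Ets1 fell (44.3 to 31.5 CPM). Of 13 NuRD subunits 3 rose, the helicases Chd3 and Chd4 by 1.03 and 0.58 among them, while the deacetylase Hdac2 fell by 0.35 and the histone-binding Rbbp7 by 0.23 on the log2 scale. With GMPs fitted on their own no member was called. The summed neutrophil genes were between 90352 and 91861 CPM in all 4 libraries, while 9 erythroid genes summed to 848 and 765 CPM in young and 109 and 50.1 CPM in aged GMPs, whose part was not tested.

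MEPs had the most calls, 5 of 10 (1 higher, 4 lower), beside 20.8% of all genes. Ebf1 fell from 12.7 and 12.9 CPM in young to 0 counts in both aged libraries, at least 47.6-fold (adjusted p = 1.51e-07). Satb1 fell from 4.03 and 4.81 CPM to 0.375 and 1.12 CPM (-2.52 ± 0.32, adjusted p = 3.56e-06), and Ikzf2 from 3.33 and 7.03 CPM to 1.41 and 0.430 CPM (-2.50 ± 0.41, adjusted p = 8.05e-05). Aged values of both were below all young ones. They rested on few counts in aged libraries, so that leaving out 1 aged library moved Satb1 between -3.57 and -2.0 and Ikzf2 between -3.58 and -1.90, all still called. With MEPs fitted on their own neither was called (adjusted p = 0.0271 for Satb1 and 0.0431 for Ikzf2).

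Foxo1 in MEPs fell from 23.0 and 29.3 CPM to 11.2 and 8.78 CPM, 2.62-fold (-1.39 ± 0.14, adjusted p = 2.38e-07). Tcf3 moved the other way, from 593 and 499 CPM to 856 and 927 CPM (0.71 ± 0.10, adjusted p = 1.14e-05), with no overlap. With offsets for GC content and length its value was 0.42 (adjusted p = 0.0101). Pax5, with 3 and 7 counts in young and 0 in aged MEPs, was not called (adjusted p = 0.0509), and Bcl11a, Ikzf1, Ikzf3 and Tcf4 were not called either.

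The lymphoid genes around the members fell together in MEPs. Of 17 B lineage target genes, 15 fell and none rose. Cd79a, the signalling chain of the B cell receptor, went from 55.5 CPM and Dntt from 55.4 CPM to 0 in both aged libraries, at least 206-fold and 205-fold lower. In both aged MEP libraries 9 of the 17 were at 0. The summed level of the 17 was 1607 and 1575 CPM in young against 916 and 852 CPM in aged cells. It was mostly Cd24a (1236 against 878 CPM). Of 20 other regulators, 15 fell, led by Lef1 from 31.6 to 0.0861 CPM, and 2 rose, Zbtb7a and Runx3. The E protein inhibitors Id3 and Id2 fell by 4.83 and 2.53 on the log2 scale.

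Levels in young MEPs were then set beside those in young CLPs. Young MEP levels amounted to 10.6% of young CLP levels for Ebf1, 4.37% for Pax5, 7.90% for Tcf4 and 15.1% for Foxo1, and to a median of 8.06% over the 17 B lineage target genes (0.0575% to 255%). Tcf3 at 63.1%, Ikzf1 at 61.7%, Bcl11a at 100% and Ikzf2 at 132% lay far above that median, and Satb1 at 1.93% and Ikzf3 at 1.55% below it. In aged groups the percent of CLP levels was 0% for Ebf1 and Pax5, 5.34% for Tcf4 and 9.08% for Foxo1. Tcf4 stood at a mean of 36.5 CPM in young and 41.2 CPM in aged MEPs, unlike Ebf1 and Pax5. Il7r, whose protein the sort selected against, stood at 9.99 and 16.8 CPM in young MEPs and at a mean of 0.309 CPM in aged ones. Erythroid genes summed to 12856 and 12665 CPM in young and 12761 and 12018 CPM in aged MEPs with none called, neutrophil genes to 290 and 261 against 124 and 28.5 CPM, and macrophage genes to 20.9 and 15.9 against 0.843 and 1.72 CPM. The part of other cells in these differences was not tested, and in bulk samples fewer cells of a type and less RNA per cell cannot be told apart.

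**Figure D3:**
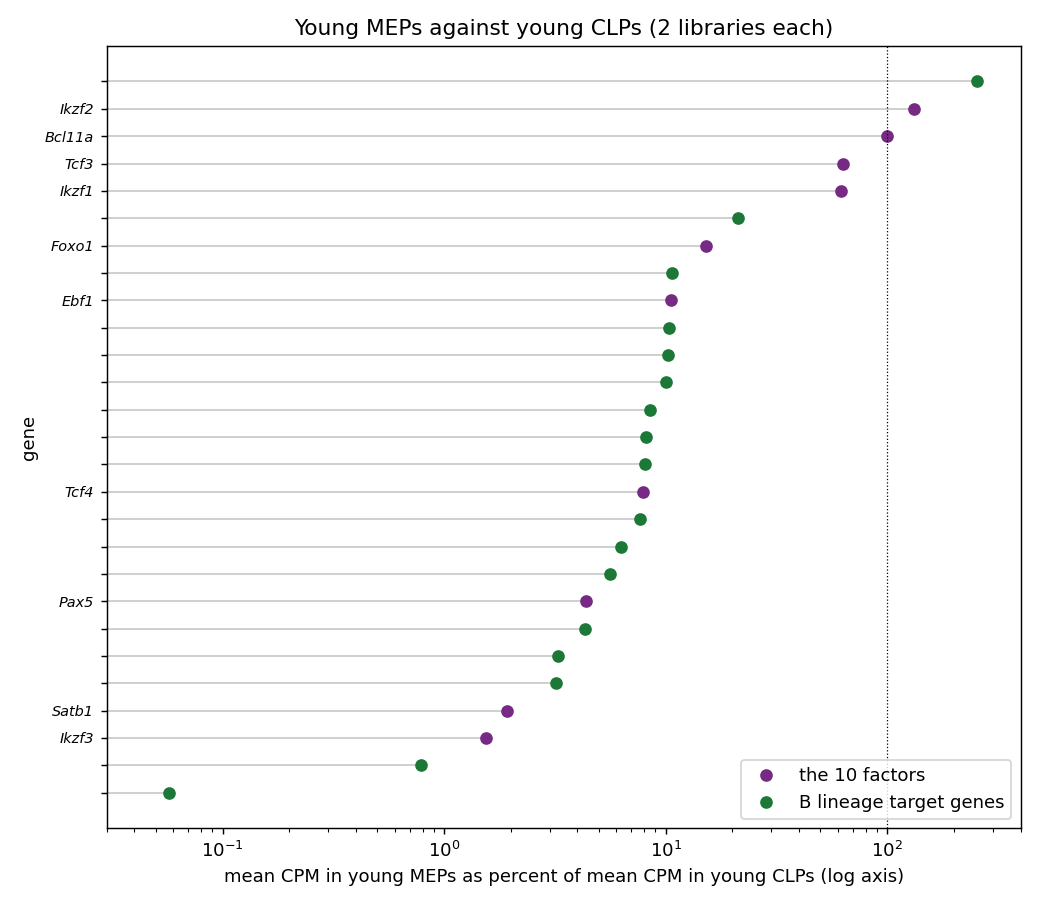
Mean level in young MEPs as a percent of the mean level in young CLPs (log axis) for the 10 transcription factors and 17 B lineage target genes, 1 point per gene, with the names of the 10 factors on the vertical axis. Ebf1, Pax5, Tcf4 and Foxo1 lie between 4.37% and 15.1%, around the 8.06% median of the target genes, and Tcf3, Ikzf1, Bcl11a and Ikzf2 above 60%. In aged groups, not shown, Tcf4 stood at 5.34% and Foxo1 at 9.08%, and Ebf1 and Pax5 at 0%.

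In CLPs, 4 members were called (1 higher, 3 lower) beside 10.4% of all genes. Ebf1 fell from 122 and 120.4 CPM in young to 61.2 and 66.7 CPM in aged CLPs, 1.90-fold (-0.92 ± 0.21, adjusted p = 0.00809). Foxo1 fell from 174 and 171 CPM to 113 and 107 CPM (-0.65 ± 0.12, adjusted p = 4.48e-04), and Tcf3 from 873 and 857 CPM to 622 and 660.4 CPM (-0.43 ± 0.10, adjusted p = 0.00336). The 3 factors that act together at the start of the B lineage were thus lower in both aged libraries than in either young one. The Ebf1 call was lost when any 1 of the 4 libraries was left out (values -0.86 to -1.0, adjusted p 0.031 to 0.0913) and the Tcf3 call without 3 of the 4. With CLPs fitted on their own, the spread coming from 4 libraries, Ebf1 was the single member called (adjusted p = 0.0121 for Foxo1, 0.0213 for Tcf3 and 0.0299 for Tcf4).

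Pax5 and Ikzf3 pointed the same way without a call. Pax5 stood at 7.23 and 8.67 CPM in young and 3.24 and 3.57 CPM in aged CLPs (-1.22 ± 0.60, adjusted p = 0.214), and Ikzf3 at 16.2 and 16.9 against 8.49 and 5.65 CPM (-1.23 ± 0.55, adjusted p = 0.14). Their groups did not overlap, which with 2 libraries each is no test of a difference. With 42 to 107 counts of Pax5 in a library, a difference of this size was not called. Ikzf1 stood at 243 and 253 against 249 and 241 CPM, overlapping between ages (-0.02 ± 0.11).

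Tcf4 rose in CLPs, from 471 and 452 CPM in young to 871 and 670.4 CPM in aged cells, 1.67-fold (0.74 ± 0.10, adjusted p = 1.51e-05). Bcl11a rose from 209 and 204 CPM to 301 and 233 CPM, short of the threshold (0.37 ± 0.10, adjusted p = 0.0108). Replicate 1 of the aged CLPs was the higher one for both, and without it Tcf4 stood at 0.54, still called, and Bcl11a at 0.17. Without aged replicate 2, Bcl11a was called (0.53, adjusted p = 9.78e-04), and it was also called with the replicate block (adjusted p = 0.00486) and by DESeq2 (adjusted p = 0.00137). Satb1 had the opposite order of duplicates, 226 and 233 CPM in young and 229.6 and 292 CPM in aged CLPs (0.18 ± 0.13, adjusted p = 0.35).

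Gene lists around the factors differed in how they moved. Of the 17 B lineage target genes 8 fell and none rose: Cd79a fell from 987 to 414 CPM, Cd79b from 388 to 179 CPM, Igll1 from 517 to 288 CPM and Cd24a from 485 to 291 CPM. Their sum was 6198 and 6303 CPM in young and 4619 and 4982 CPM in aged CLPs. The 14 early lymphoid genes summed higher with age, at 5687 and 5734 CPM in young and 6947 and 6975 CPM in aged CLPs. So did 7 B cell marker genes, at 2964 and 3055 against 7252 and 5241 CPM. T and NK cell marker genes summed lower, at 93.0 and 96.7 against 65.3 and 76.2 CPM. Of 7 Foxo1 target genes 2 fell and 1 rose, and their sum was 1967 and 1968 CPM in young and 2251 and 1780 CPM in aged CLPs, overlapping between ages. S1pr1 fell from 44.5 to 9.76 CPM and Klf2 from 628 to 175 CPM, both genes of lymphocyte egress. Of 20 other regulators, Irf8 and Hhex rose and Bach2 and Pou2af1 fell.

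Genes of other cell types also differed between the CLP groups. A list of 8 genes of plasmacytoid dendritic cells, which carry B220 and depend on Tcf4, summed to 6360 and 6462 CPM in young and 11916 and 8854 CPM in aged CLPs, with 5 of 8 called higher and the same order of aged duplicates as Tcf4 and Bcl11a. The highest, Irf8, went from 3218 to 4714 CPM, and Siglech rose from 1063 to 2622 CPM. The 8 basophil and mast cell genes summed to 1783 and 1838 CPM in young and 11.4 and 13.1 CPM in aged CLPs, with Prss34 and 2 others at 0 in both aged libraries. The 9 neutrophil genes summed to 1982 and 2037 against 362 and 378 CPM, and 10 macrophage genes to 235 and 255 against 11.3 and 8.32 CPM. Erythroid genes stood at 1440 and 1493 in young and 572 and 179.8 CPM in aged CLPs. Their part in the member differences was not tested.

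**Figure D4:**
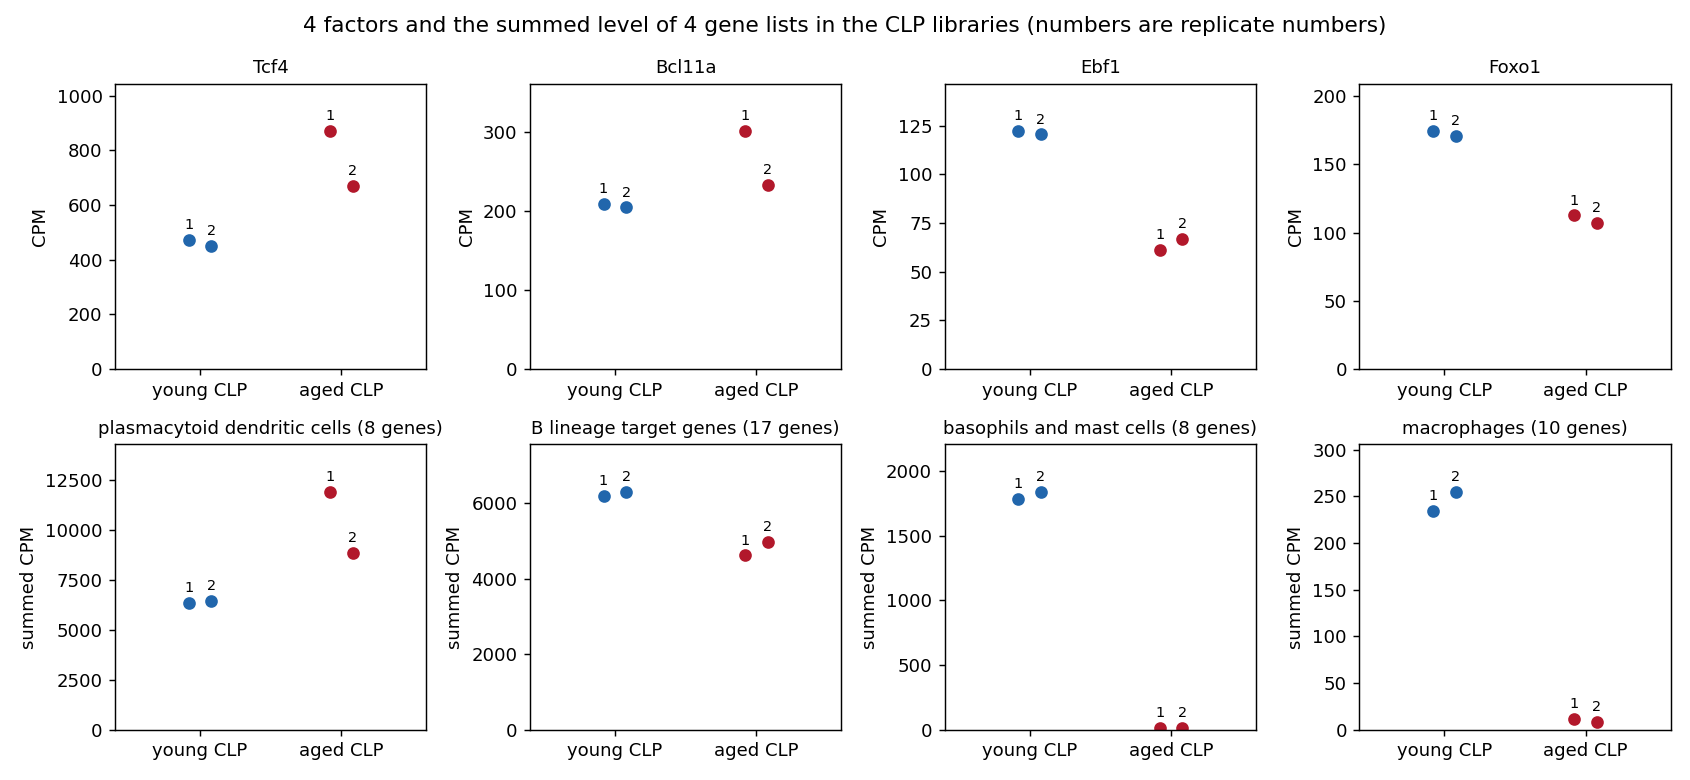
Levels in CPM in each of the 4 CLP libraries for Tcf4, Bcl11a, Ebf1 and Foxo1, with the summed CPM of 8 plasmacytoid dendritic cell, 17 B lineage target, 8 basophil and mast cell and 10 macrophage genes. Tcf4, Bcl11a and the plasmacytoid dendritic cell sum are highest in aged replicate 1, and Ebf1, Foxo1 and the basophil and macrophage sums are lower in both aged libraries.

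Whether age acted differently in the 2 lymphoid fractions was tested directly. Of the 10 members 3 differed in their age change between CLPs and MPP4, beside 17.7% of all genes. Tcf3 and Tcf4 were not called with age in MPP4 (0.22 and 0.21) and moved in opposite directions in CLPs (-0.43 and 0.74), and Bcl11a went from -0.32 in MPP4 to 0.37 in CLPs. The change in HSCs was likewise set against the mean change in MPP1 to MPP4, for which 1 member, Satb1, was called beside 3.01% of all genes (-0.98 ± 0.18, adjusted p = 0.00187). Foxo1 had negative values in CLPs and MPP4 alike, and their difference was not called (-0.23 ± 0.17, adjusted p = 0.357).

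Members were last compared by the shape of their profile over the 16 group means of log2 CPM, among 11052 genes with at least 10 CPM in a group. These are Pearson correlations given as descriptions, and fractions share depth and cell origin. Ebf1 was most like Lef1 and Scn4b (each 0.988), and Pax5 like Akap2 (0.994), Fcmr (0.984) and 5730488B01Rik (0.981). Tcf4 was most like P2ry13 (0.967), Npc1 (0.963) and Ptp4a3 (0.952), Foxo1 like Cd38 (0.965), Ppp1r16b (0.959) and Rsph9 (0.956), and Tcf3 like Them6 (0.946), Ccnt2 (0.941) and Zdhhc14 (0.935).

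Among the zinc finger members and Satb1, Bcl11a was most like Tns1 (0.975), Igf2r (0.958) and Smap2 (0.954), and Satb1 like Tmsb10 (0.955), Il12a (0.949) and Elf1 (0.941). Ikzf1 was most like Obfc1 (0.928), Tsg101 (0.910) and Pydc3 (0.901), Ikzf2 like Ppp1r26 (0.955), Akr1c12 (0.951) and Rnf138 (0.943), and Ikzf3 like Cdh1 (0.918), Gas7 (0.909) and Klrk1 (0.893). Within the set, the most similar profiles were those of Ebf1 and Pax5 (0.942), and the most opposed were Tcf3 and Ikzf2 (-0.814). Of the 30 genes, 3 for each member, 21 were also among the top 3 over the 32 libraries and 5 with Spearman's coefficient, so the particular names depended on the measure.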

How the data were processed

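Gene expression was measured by RNA-seq (SMARTer Ultra Low Input libraries, single reads) of 8 sorted marrow fractions at 2 ages in duplicate. The authors deposited whole-number counts per gene, which per their processing notes and methods came from TopHat2 2.0.13 with Bowtie2 2.1.0 on mm10. The deposited normalized table and 8 tables of the authors' own comparisons (fold changes and p-values) were not used. Strand-specific counting was not given in the sources used here.

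Counts were tested with edgeR 4.0.16 (limma 3.58.1, R 4.3.3): TMM scaling, filterByExpr (14154 genes kept), 1 mean per group over 32 libraries in 16 groups (16 residual degrees of freedom), quasi-likelihood F-tests, two-sided, with Benjamini-Hochberg adjustment within each contrast and a threshold of 0.01. Dispersions corresponded to a coefficient of variation of 0.113. CPM used TMM-adjusted totals, and folds against groups at or under 3 counts per library were computed as bounds against that floor. Standard errors were taken from the F statistic, so they include the fitted spread between duplicates, which may be technical. Floors rest on counts alone. Statements that groups did not overlap describe 2 libraries against 2 and are no test. The share of all genes without overlap was not counted. The steps were tested on simulated counts with known changes. No 2 libraries were identical.

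The members and gene lists were chosen with earlier results of these data known. The text names all 10 members, at most 4 genes per other list and comparison (the 2 highest and 2 lowest log2 changes among those called), the 2 highest genes of a marker list, and the 3 genes most like each member (prior count 2), apart from results of some genes that are not reported here. Genes named beyond these 4, such as those listed where a list had few calls, and Il7r in MEPs, were chosen after their values were seen. Gene positions came from GENCODE M21 and promoter windows from RefSeq. The matrix held 27 date-like names (0.188% of counts), none of them a member. Alternatives were DESeq2 1.42.0, its size factors, no filter, a looser threshold (0.05), a log2 fold of at least 1, a replicate block, GC and length offsets, only the libraries compared, and leaving out each library. Same-numbered replicates did not deviate together (correlations -0.0693 to 0.106 over 120 pairs of groups), so the numbers were not taken to pair samples.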

Additional observations from a re-analysis of the deposited data

Results flagged for a closer look

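The change with age differed between fractions in 4 member comparisons, which passed the threshold, as interaction terms of the fit over all libraries. Bcl11a changed by 0.69 ± 0.14 (log2, SE) more in CLPs than in MPP4 (adjusted p = 7.76e-04), from 0.37 in CLPs and -0.32 in MPP4. It stood at 209 and 204 CPM in young and 301 and 233 CPM in aged CLPs, and at 219.6 and 191 against 162 and 168 CPM in MPP4. Without replicate 1 of the aged CLPs the difference was 0.49 (adjusted p = 0.012).

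Tcf3 had a difference of -0.66 ± 0.14 (adjusted p = 0.00112) between CLPs (-0.43) and MPP4 (0.22), and Tcf4 one of 0.53 ± 0.14 (adjusted p = 0.0062) between CLPs (0.74) and MPP4 (0.21). Tcf3 lost its call without aged CLP replicate 1, and Tcf4 without any 1 of 7 of the 8 libraries. With offsets for GC content and length the Tcf4 difference was 0.41 (adjusted p = 0.104). The plasmacytoid dendritic cell genes that rose in the aged CLPs move with the Tcf4 and Bcl11a values, and their part was not tested.

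Satb1 fell more in HSCs than on average in MPP1 to MPP4 (-0.98 ± 0.18, adjusted p = 0.00187): its own change was -1.36 in HSCs, and from MPP1 to MPP4 it was -0.90, then -0.34, -0.30 and 0.02. The call was lost without replicate 2 of the young or of the aged HSCs, with values between -1.18 and -0.88 over the 20 single libraries left out.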

How the results depend on the processing

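Over 14 comparisons, 41 member results away from the floor were called. Of their 561 alternative values, 474 kept direction and call, 87 kept the direction without the call, and 0 reversed. The looser threshold and the log2 fold requirement reused the values of the main fit. These settings could therefore not reverse a result, and the looser threshold could not lose a call. A further 53 member results were called in no setting, and 25 of these changed sign in some setting. Numbers of members called depended on the setting. Shares of all genes given earlier belong to the main fit and are no background for the counts that follow. At an adjusted p under 0.05 they were 2 in MPP1, 3 in MPP2, 2 in MPP4 and 3 for HSCs against the mean of the MPPs. Requiring a log2 change of at least 1 left 0 in MPP1, GMPs and CLPs and for both differences of age changes, 1 in MPP3, and 3 for aged MPP4 against HSCs. With only the libraries compared, fewer samples give the spread: 3 were called in MPP1, 2 in MPP2, 1 in MPP3, 0 in GMPs, 3 in MEPs, 1 in CLPs, 1 for CLPs against MPP4 and 3 for HSCs against the MPPs. DESeq2 called 2 in MPP1, MPP2 and MPP4 and 3 for HSCs against the MPPs, and its size factors gave 2 in MPP4. GC and length offsets, with or without the block, gave 2 in GMPs, and the cause was not tested.

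The replicate block moved the counts in MPP4 to 1 and for HSCs against the MPPs to 2 (Bcl11a was added in both) and changed no other of the 14 counts by over 1.5 times; since the numbers do not pair samples, it is given as an alternative only. Leaving out 1 library gave 0 to 1 calls in MPP1, 1 to 2 in MPP3, 0 to 2 in GMPs, 2 to 4 in CLPs, 0 to 3 for CLPs against MPP4 and 0 to 1 for HSCs against the MPPs, the lone library then being assumed to vary like the other groups. HSCs stayed at 1 and MEPs at 5. Neighbours called in the order of fractions numbered 23 of 70 in young and 25 in aged marrow at 0.01. Apart from Ebf1 in young MEPs (199 and 180 counts), Ebf1, Pax5 and Ikzf3 outside CLPs rested on counts near the floor. Small differences there were not detectable at this depth.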
